A study of Mus musculus with 6 samples.

Results

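Prostaglandins and lipoxygenase products are made from arachidonic acid by a short chain of enzymes, and 10 genes of that chain were followed here in the corneal epithelium of control mice and of mice with *Rela* deleted in keratin 14-expressing cells. They are *Pla2g4a*, *Ptgs1*, *Ptgs2*, *Ptges*, *Ptges2*, *Ptges3*, *Ptgds*, *Hpgd*, *Alox12* and *Alox15*. The 10 genes were found by symbol among the 17554 genes of the expression table, and all 10 were present. The set was chosen by someone who knew the mutant and control values, so the difference between the genotypes is a description for these genes. No p is given for any of them, and where they are counted against the thresholds of the fit over all genes, the count supports nothing. The corneal epithelial layer of 3 mutant mice and 3 control mice of the C57BL/6 strain, all 2 months of age, was profiled by bulk RNA-seq. The mutant mice were *Krt14-Cre; Rela f/f* animals, labelled Rela-/-, in which a recombinase expressed from the keratin 14 promoter removes the floxed part of *Rela*, the gene of the RelA subunit of NF-κB. *Krt14-Cre* acts in corneal and limbal epithelium but also in conjunctiva, meibomian gland and skin, so the allele was not removed in the cornea alone. The control mice were labelled WT, and whether they carried the floxed allele or the recombinase is not given in the sources used here. No animal of either group is described as wounded or treated.

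Arachidonic acid is stored in membrane phospholipids and is freed by phospholipases A2, of which the cytosolic enzyme encoded by *Pla2g4a* is the best known. Cyclooxygenases turn it into prostaglandin H2, from which terminal synthases make prostaglandins E2, D2 and others, and 15-hydroxyprostaglandin dehydrogenase starts their inactivation. Lipoxygenases oxidise the same fatty acid at other carbons, and in the cornea the 12/15-lipoxygenase products and lipoxin A4 are known for their part in wound repair and the control of inflammation. *Ptgs2*, also known as COX-2, is the inducible cyclooxygenase and a textbook NF-κB target in inflamed cells.

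The promoters of both genes with the largest differences, *Ptgs2* and *Ptges*, and that of *Ptgds* are shown because RelA binds κB sites and *Ptgds* alone held the RelA consensus. RefSeq start sites of the GRCm38.p6 assembly were given for 9 of the 10 genes, and the 250 bases before each start were searched. The windows lie at chr1:150099781-150100030 on the plus strand for *Ptgs2*, chr2:30903298-30903547 on the minus strand for *Ptges* and chr2:25469750-25469999 on the minus strand for *Ptgds*. Each sequence runs 5′ to 3′ on the strand of its gene and ends at the base before the RefSeq start, and capitals mark the motifs named in the text. The RefSeq starts of *Ptgs2* and *Ptges2*, and 1 start of *Pla2g4a*, match the gene ends of the expression table. Those of the other genes searched differ from them. The windows of *Ptges*, *Ptgds*, *Ptgs1* and *Ptges3*, and a further window of *Pla2g4a*, lie within the spans the table gives for these genes. Those of *Alox12* and *Hpgd* overlap their spans at the edge. Part of what was searched may therefore lie inside longer transcripts.
Ptgs2: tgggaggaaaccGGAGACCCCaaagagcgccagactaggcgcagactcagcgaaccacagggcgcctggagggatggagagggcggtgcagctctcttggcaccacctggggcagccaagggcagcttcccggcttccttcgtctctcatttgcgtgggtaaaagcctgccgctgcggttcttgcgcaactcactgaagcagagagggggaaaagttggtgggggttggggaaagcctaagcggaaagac
Ptges: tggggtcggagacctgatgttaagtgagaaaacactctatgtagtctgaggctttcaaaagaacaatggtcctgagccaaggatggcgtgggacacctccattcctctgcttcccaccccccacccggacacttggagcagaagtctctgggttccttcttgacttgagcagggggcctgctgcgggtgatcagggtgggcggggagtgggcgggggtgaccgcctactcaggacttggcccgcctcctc
Ptgds: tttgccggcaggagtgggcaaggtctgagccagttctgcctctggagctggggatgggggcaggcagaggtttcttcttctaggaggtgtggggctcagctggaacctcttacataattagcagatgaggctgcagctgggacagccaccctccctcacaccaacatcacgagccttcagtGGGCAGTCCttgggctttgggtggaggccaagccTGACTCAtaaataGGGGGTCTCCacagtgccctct

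The search covered the 10-base RelA κB consensus, a looser κB form (GGGNNNTCC), the AP-1 site (TGANTCA), the cyclic AMP response element (TGACGTCA) and the E-box (CACGTG) on both strands, and the TATA box (TATAAA) on the strand of the gene. The κB consensus stood in 1 of the 9 genes, *Ptgds*, from 22 to 13 bases before its start, against 3.9% of 32817 windows of all genes. The looser form stood in 4 of the 9 genes, against 15.2% of all windows and 19.4% of the windows of tested genes, where a gene can have several windows. In *Ptgs2* it lay on the opposite strand from 238 to 230 bases before the start, in *Ptges3* on the opposite strand from 86 to 78 bases before it, *Ptges2* held 3 matches, and in *Ptgds* 1 of 2 matches overlapped the consensus. *Ptgds* also held the AP-1 letters, from 35 to 29 bases before its start, as did 6.75% of all windows. *Ptges2* held the E-box, as did 6.02% of all windows. The response element, at 1.55% of windows, and the TATA letters, at 7.6%, were in none of the 9 genes. The *Ptges*, *Ptgs1*, *Pla2g4a*, *Alox12* and *Hpgd* windows held none of the motifs, which says only that these letters are not in the 250 bases searched. The *Ptgs2* window overlaps exons of the antisense RNA gene *Ptgs2os* in the GENCODE M21 annotation, but no exon of *Ptgs2* itself overlaps another gene.

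The expected counts, which are RSEM's estimates of reads per gene, summed to between 19492942 and 19733834 per sample. *Rela* itself had 1799, 1672 and 1614 counts in control samples against 230, 260 and 270 in mutant samples, a log2 fold change of -2.75 ± 0.085 (SE; edgeR quasi-likelihood test, adjusted p = 5.5e-07). The corneal epithelial markers *Krt12* and *Krt5* had 604051 to 751903 and 461342 to 546821 counts per sample. Of the 8 epithelial markers, *Krt14* was higher in mutant samples (log2 fold change 3.32 ± 0.18, adjusted p = 1.06e-05 by edgeR), while *Aldh3a1* and *Upk1b* were lower at adjusted p = 0.0466 and 0.0438. In bulk RNA, fewer cells of a type and less RNA per cell cannot be told apart.

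Of the 10 genes, 9 passed the filter on low counts and *Ptgds* did not. *Ptgs2* passed only through the mutant samples, where it was high. At the thresholds used by the study, 2-fold or more with adjusted p no higher than 0.001, 2 of the 9 were called, *Ptgs2* and *Ptges*, both higher in mutant mice. Over all 12667 genes tested, 1.37% were called and 1.31% were called higher. At an adjusted p under 0.05 alone, 3 genes were higher, namely *Ptgs2*, *Ptges* and *Pla2g4a*, where 7.82% of all genes were higher, and 1 gene was lower, *Alox12*, where 5.42% were lower. Nothing is read from these counts or from their changes when samples are left out, because the genes were chosen on this contrast. The median log2 fold change was -0.065 over the 9 genes and -0.0028 over all genes tested.

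**Figure D1:**
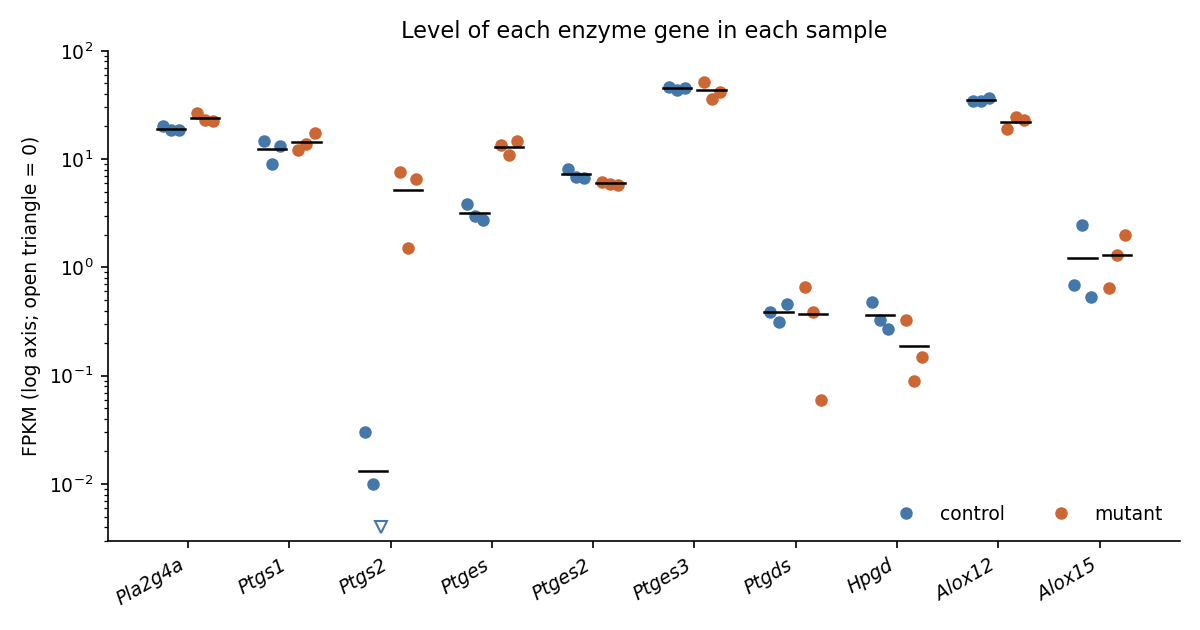
FPKM of the 10 genes in each of the 6 samples on a log axis, with control samples in blue, mutant samples in orange and black lines at group means. The *Ptgs2* values of the control samples lie at 0.03 or lower and those of the mutant samples at 1.51 or higher, and a triangle marks the control sample at 0.

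*Pla2g4a* (gene 18783, chromosome 1 from 149829618 to 149961290, GRCm38), the phospholipase that supplies arachidonic acid, was somewhat higher in the mutant mice. FPKM, in which counts are divided by transcript length and sample total, was 20.1, 18.5 and 18.6 in control samples 1, 2 and 3 and 26.6, 23.1 and 22.5 in mutant samples 1, 2 and 3. The groups did not overlap, although the lowest mutant sample exceeded the highest control sample only slightly. The mean was 19.1 ± 0.91 in control and 24.1 ± 2.2 FPKM in mutant mice (SD, n = 3 each), and the log2 fold change from edgeR was 0.33 ± 0.089 (SE). The adjusted p rose above 0.05 when any 1 sample other than mutant sample 3 was left out, with log2 fold changes from 0.25 to 0.36 in those fits.

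*Ptgs2* (gene 19225, chromosome 1 from 150100031 to 150108234), the inducible cyclooxygenase, was close to undetected in control mice and present in each mutant mouse. Its counts were 3, 1 and 0 in control samples against 670, 133 and 575 in mutant samples, and its FPKM was 0.03, 0.01 and 0 against 7.64, 1.51 and 6.48. Mutant sample 2 was the lowest of the mutants, and the highest mutant FPKM was 5.06 times the lowest, yet the groups were far apart. The summed counts, 4 against 1378, gave a ratio of 344 after scaling to total counts, with an exact 95% interval of 134 to 1264 that covers counting error only and not the spread between mice. The fitted log2 fold change of 8.29 ± 0.91 (SE) depends on the prior count that edgeR adds to near-zero values. The call at both thresholds was lost when any 1 control sample was left out, where the fitted value was 9.50 without control sample 1, 8.13 without control sample 2 and 7.76 without control sample 3.

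*Ptgs1* (gene 19224, chromosome 2 from 36216744 to 36252275), the constitutive cyclooxygenase, overlapped between the genotypes. It had 14.6, 9.05 and 13.1 FPKM in control samples against 12.2, 13.8 and 17.3 in mutant samples, with control sample 2 the lowest and mutant sample 3 the highest. The means were 12.3 ± 2.9 and 14.4 ± 2.6 FPKM (SD, n = 3 each), with a log2 fold change of 0.25 ± 0.17 (SE). Of its 50-base transcript windows, 2.63% also occur in *Gm43621*, an overlapping gene on the opposite strand, so a small part of its reads could belong to that gene.

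Both cyclooxygenases can be set side by side within each sample, since FPKM is scaled by length. *Ptgs2* made up 0.205%, 0.11% and 0% of the summed cyclooxygenase FPKM in control samples against 38.5%, 9.88% and 27.3% in mutant samples. The mean share was 0.105% ± 0.1 in control and 25.2% ± 14 in mutant mice (SD, n = 3 each). *Ptgs1* therefore stayed the larger of the pair by FPKM in each mutant sample. By expected counts, which are not scaled by length, the pair was nearly level in mutant sample 1, at 675 for *Ptgs1* and 670 for *Ptgs2*. The summed level was 12.3 ± 2.9 FPKM in control and 19.6 ± 4.2 FPKM in mutant mice.

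Of the prostaglandin E synthases, *Ptges* had the largest difference between the genotypes. *Ptges* (gene 64292, chromosome 2 from 30889471 to 30903858) encodes the microsomal, inducible enzyme that is often coupled to COX-2. Its FPKM was 3.85, 2.97 and 2.71 in control samples against 13.5, 10.9 and 14.8 in mutant samples, so each mutant sample lay well above each control sample. The mean went from 3.18 ± 0.6 in control to 13.0 ± 2.0 FPKM in mutant mice (SD, n = 3 each), a ratio of 4.1 and a log2 fold change of 2.03 ± 0.14 (SE). Without control sample 2 the log2 fold change was 1.98, still past the 2-fold threshold, but *Ptges* no longer met the adjusted p threshold of 0.001.

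*Ptges2* (gene 96979, chromosome 2 from 32395890 to 32405772), a membrane-associated synthase, had 8.15, 6.77 and 6.73 FPKM in control samples against 6.16, 5.93 and 5.78 in mutant samples. The mutant values were the lower ones without overlap, but the log2 fold change of -0.28 ± 0.11 (SE) met neither call rule. *Ptges3* (gene 56351, chromosome 10 from 128055745 to 128078462), the cytosolic synthase also known as the HSP90 co-chaperone p23, had 46.3, 43.3 and 45.4 FPKM in control samples against 51.9, 35.5 and 41.7 in mutant samples. The groups overlapped, with both the highest and the lowest value among the mutants, and the log2 fold change was -0.065 ± 0.12 (SE). In *Ptges3*, 19.6% of the 50-base transcript windows also occur in the copies *Ptges3-ps* or *Gm11893*, so RSEM may have divided some of its reads and its level is uncertain to that extent.

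Within each sample, the share of *Ptges* in the summed FPKM of the 3 synthases was 6.61%, 5.6% and 4.95% in control samples against 18.8%, 20.8% and 23.7% in mutant samples. The mean share was 5.72% ± 0.84 in control and 21.1% ± 2.5 in mutant mice (SD, n = 3 each), while *Ptges3* held 81.3% ± 1.7 and 69.1% ± 3. The summed level of the 3 genes was 55.4 ± 2.7 and 62.0 ± 9.6 FPKM, so the makeup differed more clearly than the total. These shares weigh *Ptges3* as a synthase, although it also serves other proteins.

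**Figure D2:**
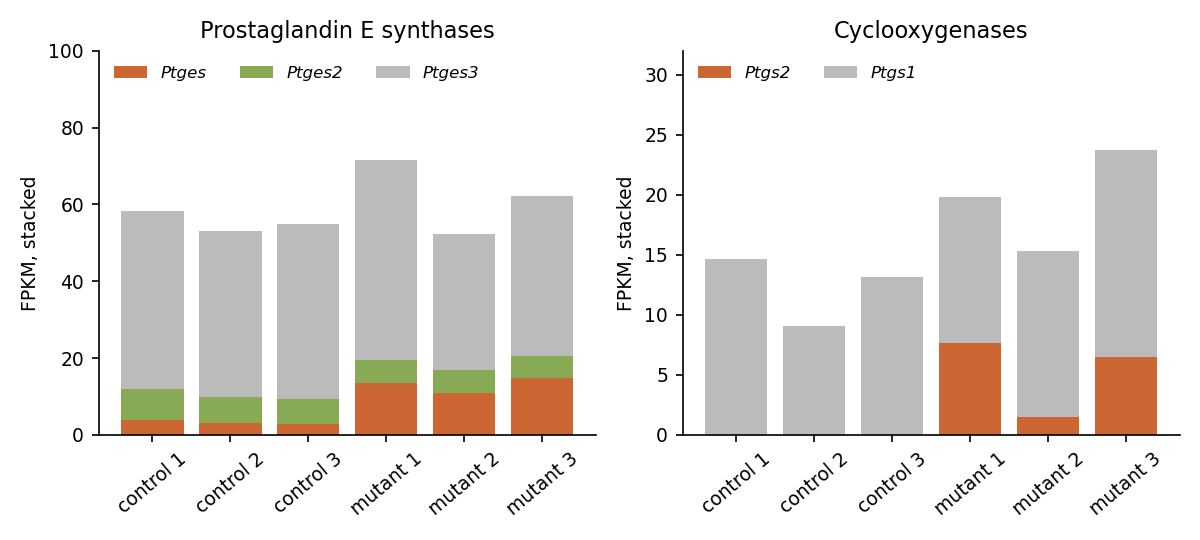
Stacked FPKM of the 3 prostaglandin E synthases (left) and of both cyclooxygenases (right) in each control and mutant sample. The *Ptges* part holds 4.95% to 6.61% of the bar in control samples and 18.8% to 23.7% in mutant samples, and *Ptgs2* is visible only in the mutant bars.

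*Ptgds* (gene 19215, chromosome 2 from 25462811 to 25470110), the lipocalin-type prostaglandin D synthase, was barely present, with 6, 5 and 7 counts in control samples against 10, 6 and 1 in mutant samples. It was not tested, and its mean FPKM of 0.387 ± 0.075 and 0.37 ± 0.3 (SD, n = 3 each) overlapped between the groups. *Ptgds* is also known as a gene of corneal stromal keratocytes, and at this depth no difference was detectable. The other prostaglandin D synthase, the glutathione-dependent *Hpgds*, which was singled out after its values were seen, had 42.4, 49.1 and 39.97 FPKM in control samples against 42.9, 41.5 and 45.2 in mutant samples. Its log2 fold change was 0.01 ± 0.081 (SE; edgeR, adjusted p = 0.954).

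*Hpgd* (gene 15446, chromosome 8 from 56294537 to 56321046), the dehydrogenase that inactivates prostaglandins, was near the limit of detection. It had 16, 11 and 9 counts in control samples against 11, 3 and 5 in mutant samples, with overlap between the groups. The log2 fold change was -0.91 ± 0.49 (SE), or -1.57 without mutant sample 1, and no difference was detectable at this depth.

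*Alox12* (gene 11684, chromosome 11 from 70241455 to 70255381), the platelet-type 12-lipoxygenase that is also made by epithelia, was lower in the mutant mice. Its FPKM was 34.2, 34.3 and 36.9 in control samples against 19.0, 24.5 and 22.8 in mutant samples. Each mutant sample lay below each control sample, at means of 35.1 ± 1.5 in control and 22.1 ± 2.8 FPKM in mutant mice (SD, n = 3 each). The log2 fold change was -0.63 ± 0.1 (SE), short of the 2-fold threshold.

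*Alox15* (gene 11687, chromosome 11 from 70344147 to 70382635), the 12/15-lipoxygenase of lipoxin synthesis, varied more within the genotypes than between them. Its counts were 76, 150 and 49 in control samples against 53, 92 and 118 in mutant samples, with the highest and the lowest value both among controls. The log2 fold change was -0.071 ± 0.39 (SE), and its sign differed among the alternatives, 4 of 14 giving a positive value. FPKM per 100 counts of *Alox15* ran from 0.907 to 1.67 among the samples, 1.84 times, whereas that of *Ptges*, *Ptges2*, *Ptges3* and *Pla2g4a* varied 1.01 times. RSEM's FPKM depends on the lengths of the transcripts to which a gene's reads were assigned, so the FPKM of *Alox15*, from 0.53 to 2.48, carries this variation too.

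**Figure D3:**
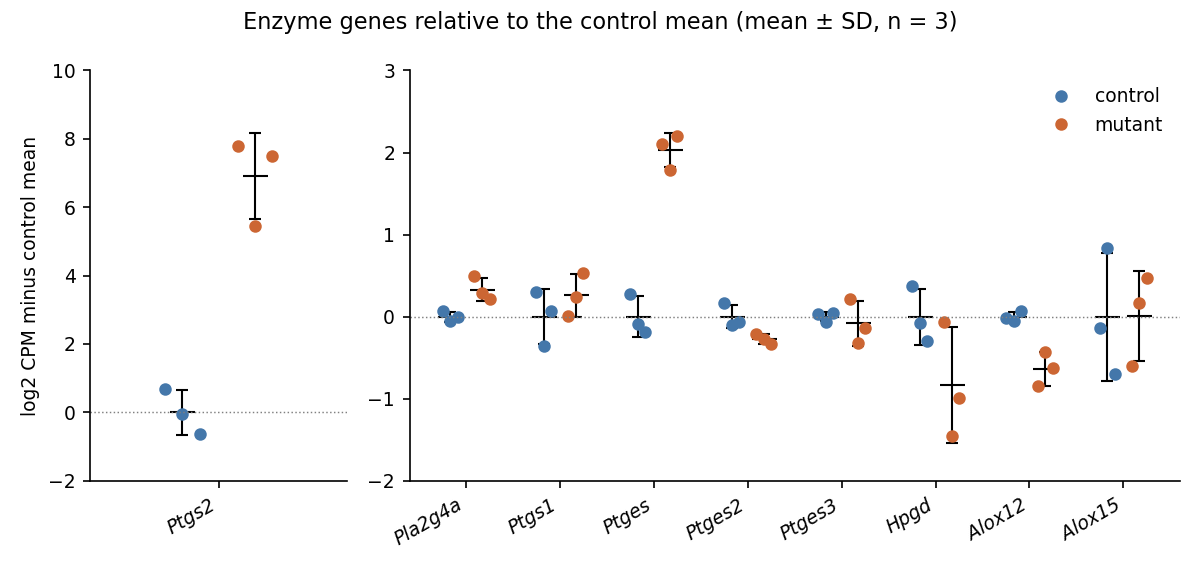
Log2 CPM (counts scaled to a common library size by TMM, with edgeR's prior count) of the 9 tested genes in each sample minus the mean of the control samples, with means and SD (n = 3) and a separate axis for *Ptgs2*. Mutant values of *Ptges* lie from 1.79 to 2.199 and those of *Alox12* from -0.84 to -0.43, while for *Ptgs1*, *Ptges3*, *Hpgd* and *Alox15* the groups overlap.

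Ordered by mean FPKM in control mice, the genes ran from *Ptges3* through *Alox12*, *Pla2g4a*, *Ptgs1*, *Ptges2*, *Ptges*, *Alox15*, *Ptgds* and *Hpgd* to *Ptgs2*. Neighbours in this order did not overlap in the 3 control samples except *Ptgds* and *Hpgd*. In mutant mice *Ptges* came to lie above *Ptges2*, and *Ptgs2* above *Alox15*, though the ranges of *Ptgs2* overlapped those of both *Ptges2* and *Alox15*. *Pla2g4a* and *Alox12*, as well as *Ptgs1* and *Ptges*, overlapped in mutant samples, as did *Alox15* with *Ptgds* and *Ptgds* with *Hpgd*.

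*Pla2g4a* and *Ptgs2* are neighbours in the genome, 139 kb apart with no listed gene between them, and both were higher in mutant mice by very different amounts. The next listed gene beyond *Ptgs2*, *Pdc*, had 0 counts in the controls together and 4 in the mutants together. *Alox12* and *Alox15* lie 88.8 kb apart with the lipoxygenase *Alox12e* between them, which had 15, 199 and 35 counts in control samples against 5, 11 and 46 in mutant samples. Control sample 2 was the highest for both *Alox12e* and *Alox15*, and for *Alox12e* the edgeR test gave a log2 fold change of -2.01 ± 0.93 (SE, adjusted p = 0.19). Beside *Ptges*, *Prrx2* had 2 counts in each group and was not tested, and *Tor1b* had a log2 fold change of -0.14 ± 0.097 (SE; edgeR, adjusted p = 0.398). Of the other nearest genes tested, *Lcn2* beside *Ptges2* was higher (3.54 ± 0.81, adjusted p = 0.0193) and *Atp5b* beside *Ptges3* was higher (0.26 ± 0.072, adjusted p = 0.039), while *Gm46735*, *Pdcl*, *Slc25a25*, *Naca*, *Paxx*, *Rnasek*, *Pelp1* and *Cep44* gave adjusted p-values from 0.062 to 0.754 (edgeR).

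The 5 tested genes whose log2 CPM followed *Ptgs2* most closely over the 6 samples were *Abca12*, *Srd5a3*, *Fyb*, *Naa25* and *Hspa4l*, with Pearson r from 0.9945 to 0.9983. The 6 points fall into 2 genotypes, so a gene that differs between the genotypes can reach a high r for that reason alone. *Abca12*, a lipid transporter of keratinocytes, had 2, 1 and 0 counts in control samples against 156, 38 and 101 in mutant samples, the same order among mutants as *Ptgs2*. *Srd5a3*, a polyprenol reductase, differed far less, with 239, 235 and 225 counts against 281, 262 and 291. *Hspa4l*, a heat shock chaperone, had 334, 303.5 and 264 counts against 738, 633 and 847, and *Naa25*, a subunit of an N-terminal acetyltransferase, had 783, 763 and 684 against 1183, 1079 and 1275. The adaptor gene *Fyb* was low, with 7.98, 7.01 and 6.43 counts against 15, 12.1 and 15.9.

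Beyond these enzymes, 79 other genes of the eicosanoid pathways were in the table and 53 were tested. Of the 53, 1 was called at both thresholds, *Pla2g2f*, against 1.37% of all genes tested, while 8 were higher and 5 lower at an adjusted p under 0.05, against 7.82% and 5.42% of all genes. The median log2 fold change was -0.15 over the 53 genes and -0.0028 over all genes tested. These lists too were drawn up with earlier results of these data known, so their counts are not independent evidence.

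Among 17 other phospholipases A2 and release genes, 12 were tested, 2 were higher, 1 was lower and 9 did not pass the adjusted p of 0.05. *Pla2g2f*, a secreted phospholipase known from the upper layers of skin, had 1.69, 2.38 and 2.12 FPKM in control samples against 4.54, 4.78 and 5.36 in mutant samples. Each mutant value was above each control value, with a log2 fold change of 1.24 ± 0.15 (SE; edgeR, adjusted p = 0.000724, from 3.3e-09 to 0.00564 over the alternatives). Its call at both thresholds was lost without control sample 1, 2 or 3 or mutant sample 2 or 3, at adjusted p = 0.00273, 0.00373, 0.00564, 0.00306 and 0.0024. *Pla2g4e*, a relative of *Pla2g4a*, was near the limit of detection, with 2, 2 and 4 counts in controls and 11, 12 and 11 in mutants. Its FPKM was 0.03, 0.03 and 0.05 in controls and 0.14, 0.15 and 0.14 in mutants (2.03 ± 0.46, adjusted p = 0.018 by edgeR). *Pla2g15*, the lysosomal phospholipase A2, fell from 2.96, 3.10 and 2.28 to 1.87, 1.47 and 2.00 FPKM (-0.65 ± 0.17, adjusted p = 0.0321). Both lost significance without control sample 1, control sample 2 or mutant sample 2, at adjusted p from 0.0613 to 0.126. *Pla2g4e* also lost it with DESeq2 (adjusted p = 0.0822) and with limma on log2(FPKM + 1) (0.136).

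Of the other synthases, reductases, inactivating enzymes and transporters of prostanoids, 13 were in the table, 12 were tested, 1 was higher and 1 lower. *Akr1b3*, an aldose reductase with prostaglandin F synthase activity, rose from 226, 215 and 240 FPKM to 440, 323 and 334 (log2 fold change 0.69 ± 0.12, adjusted p = 0.00604 by edgeR). Since 13.6% of its 50-base transcript windows occur in copies elsewhere, this level is uncertain. *Ptgr1*, a reductase that inactivates 15-keto prostaglandins and leukotriene B4, fell from 367, 403 and 413 FPKM to 204, 236 and 238 (-0.81 ± 0.089, adjusted p = 0.00048). The groups of both genes did not overlap, and both kept an adjusted p under 0.05 in all 14 alternatives.

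Most prostanoid receptors were close to undetected in these samples. Of 10 listed genes, 7 had 3 or fewer counts in every sample, including *Ptger2*, *Ptger3*, *Ptgdr*, *Ptgfr*, *Ptgir* and *Tbxa2r*. The 2 most abundant were *Ptgfrn*, which encodes a regulator of the prostaglandin F receptor and not a receptor, at 35.1 to 39.7 FPKM in control and 34.8 to 44.0 in mutant samples, and the prostaglandin E receptor *Ptger1*, at 1.15 to 1.41 and 0.81 to 1.41. None of the 3 tested genes passed an adjusted p of 0.05 by edgeR, DESeq2 or limma, and 0 had an unadjusted p under 0.05 by edgeR. Without mutant sample 1, *Ptger1* was lower at adjusted p = 0.0302, the lowest of its range up to 0.645 over the alternatives.

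Among 16 other lipoxygenase and leukotriene genes, 10 were tested, 1 was higher and 1 lower. *Alox12b*, the 12R-lipoxygenase of the epidermal barrier, went from 0.43, 0.33 and 1.74 FPKM in control samples to 8.86, 4.33 and 6.73 in mutant samples. Control sample 3 was the highest control, yet each mutant value exceeded it, and the log2 fold change was 2.98 ± 0.49 (SE; edgeR, adjusted p = 0.00422). Without control sample 3 it was 4.13, and *Alox12b* then met both thresholds (adjusted p = 0.000891; range 0.000891 to 0.0244). *Alox12* and *Alox12b* differed in opposite directions, and *Alox12* remained the more abundant of the pair in FPKM in each mutant sample. *Gpx4*, the peroxidase that reduces lipid hydroperoxides, fell from 132, 128 and 134 FPKM to 104, 96.8 and 101 (-0.39 ± 0.071, adjusted p = 0.00623), with 34.7% of its windows shared with *Gpx4-ps2* and another copy.

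Of 9 genes for receptors of leukotrienes, lipoxins and resolvins, with annexin A1, 4 were tested and all 4 were higher in mutant mice at an adjusted p under 0.05, where 7.82% of all genes tested were higher. With so short a list, drawn up when earlier results were known, the count describes these 4 genes only. *Ltb4r1*, the high-affinity receptor of leukotriene B4, had 7.08, 5.98 and 5.23 FPKM in control samples against 11.5, 10.8 and 12.8 in mutant samples (log2 fold change 0.90 ± 0.12, adjusted p = 0.00125 by edgeR). *Ltb4r2*, its low-affinity relative, was higher by 0.53 ± 0.12 (adjusted p = 0.0193), and *Cmklr1*, a receptor of chemerin and resolvin E1, by 1.34 ± 0.32 (adjusted p = 0.023). *Anxa1*, a protein known to restrain phospholipase A2, rose from 467, 473 and 492 to 1012, 745 and 762 FPKM (0.81 ± 0.12, adjusted p = 0.00225). In all 4 genes the mutant values lay above the control values. Such separation was common, since FPKM groups did not overlap in 32 of the 79 pathway genes to which these belong, in either direction. The share over all genes was not counted. *Ltb4r2* lost significance without control sample 2 (adjusted p = 0.0802) or 3 (0.0783), and *Cmklr1* without control sample 1 (0.0801), control sample 2 (0.0881) or mutant sample 2 (0.0747).

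**Figure D4:**
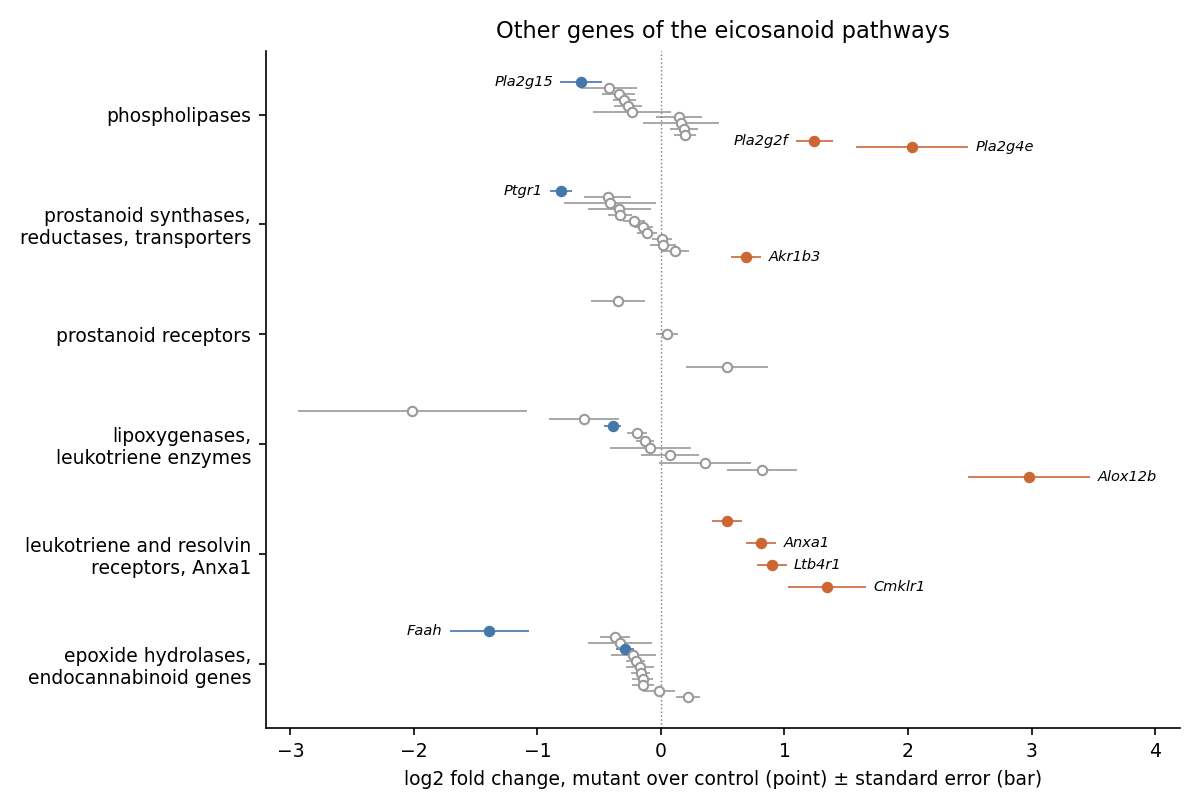
Log2 fold changes, mutant over control, of the 53 tested genes of the other lists with their standard errors. Filled orange points are higher and filled blue points lower at an adjusted p under 0.05 (8 and 5 genes), and open grey points did not pass.

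Several of these enzymes are also made by stromal, blood or immune cells, so markers of those cells were counted. The 7 keratocyte markers other than *Ptgds* summed to 12, 8.4 and 6.6 counts in control samples, and to 173, 96 and 30 in mutant samples, led by *Dcn*, the one gene of them that was tested and higher (log2 fold change 4.17 ± 0.72, adjusted p = 0.00507 by edgeR), while *Kera* had at most 2 counts. The 10 leukocyte markers summed to 82.9 to 91.0 FPKM in control and 75.9 to 125 in mutant samples, mostly *Itgam* and *Cd68*. *Itgam* had 6017, 5873 and 6193 counts in control samples and 8725, 5948 and 4749 in mutant samples. Of 4 tested, *Laptm5* was higher (1.35 ± 0.38, adjusted p = 0.0451 by edgeR), a call that DESeq2 and limma on log2(FPKM + 1) did not make, and *Adgre1* had 3 or fewer counts throughout. *Ptprc*, which marks all leukocytes, had 6, 6 and 1 counts in control samples against 14, 2 and 9 in mutant samples, and the macrophage gene *Lyz2* had 0, 0 and 1 against 23.7, 13 and 3.79. The summed leukocyte FPKM thus follows *Itgam* and *Cd68* and is not a measure of leukocyte content. The part of stromal and immune cells in the *Ptgs2* and *Ptges* values was not tested.

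The 8 neutrophil and mast cell markers summed to 57.8 to 68.9 FPKM in control and 50.4 to 63.5 in mutant samples, mostly *Kit*, with *Mpo*, *Retnlg* and *Mcpt4* at 3 or fewer counts. That sum follows *Kit* and is not a measure of those cells. The 6 endothelial markers summed to 74 to 147 counts in control and 67 to 90 in mutant samples, with *Cdh5* and *Kdr* at 3 or fewer. Most of that sum was *Tie1*, at 68, 86 and 137 against 53, 60 and 72 counts, whereas *Pecam1* had 2, 2 and 5 against 8, 7 and 14 counts and was not tested. Among the conjunctival markers *Krt13* was lower (-0.45 ± 0.097, adjusted p = 0.0152 by edgeR), and *Muc5ac* and *Muc5b* had 3 or fewer counts. *Krt4* had 117, 90.6 and 68.9 FPKM in control samples against 66.2, 19.75 and 50.9 in mutant samples (edgeR, adjusted p = 0.0913). *Krt19* overlapped between the groups, at 85.3, 81 and 83.6 against 111, 78.4 and 84.2 FPKM. Of the platelet markers, *Ppbp* had 1, 2 and 1 counts in control samples against 725, 303 and 113 in mutant samples, while *Pf4* had 0 counts in controls and 5, 2 and 0 in mutants and *Itga2b* had 136, 150 and 141 against 120, 107 and 129. The part of platelets in the *Alox12* values was not tested.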

How the data were processed

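RNA of the separated corneal epithelial layer of 3 control and 3 mutant mice was depleted of rRNA and sequenced as single-end reads of 50 bases, as the paper's methods state, whereas the submitters' protocol names a TruSeq kit. Reads were filtered with SOAPnuke. Per the submitters' processing notes, the authors aligned them with Bowtie2 2.2.5 and used RSEM 1.2.12 to make the deposited expected counts, which are not normalized, and the deposited FPKM values, scaled by transcript length and sample total. The notes name the mm9 build, but the table's chromosome records and coordinates are those of GRCm38. Between 31.5% and 32.2% of a sample's expected counts are not whole. Columns of the authors' own comparison (fold changes and p-values) and of group averages were not used. All per-sample columns were used.

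Expected counts were rounded and fitted in edgeR 4.0.16 (R 4.3.3) with TMM scaling, filterByExpr (minimum count 10, minimum total 15) and the quasi-likelihood test on genotype, adjusted by the Benjamini-Hochberg method over 12667 genes. A standard error was taken as the log2 fold change divided by the root of its F statistic. Depth was 19492942 to 19733834 counts, at which 3 counts equal 0.152 to 0.154 CPM, a limit that covers counting error only. Alternatives were DESeq2 1.42.0, limma 3.58.1 on log2(FPKM + 1) and log2(FPKM + 0.1), other scalings and filters, a replicate block and each sample left out. The scripts were tested on simulated data. Windows of 50 bases shared between genes were counted in GENCODE M21 transcripts.

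The 10 genes and all gene lists were chosen with earlier results of these data known. Genes named from the other lists were those past both thresholds, then up to 4 per list with the smallest adjusted p under 0.05, else the 2 with the highest FPKM; the nearest listed gene on each side of a member; and the 5 genes most correlated with *Ptgs2*. Of marker lists, the most abundant genes and those near 0 were named. Listed genes with no row in the table were not analysed here.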

Additional observations from a re-analysis of the deposited data

How the results depend on the processing

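Of the 9 tested enzyme genes, 4 had an adjusted p under 0.05, and the alternatives gave 3 or 4. The count past both thresholds, 2, was 1 with a minimum of 10 counts in every sample, which drops *Ptgs2* from the test, and 1 with limma on log2(FPKM + 1), whose pseudocount compresses *Ptgs2*. It ran from 0 to 2 when single samples were left out and was 0 without control sample 2, where fewer samples were fitted. Over all genes, 173 passed both thresholds, against 330 with DESeq2, 114 with limma on log2(FPKM + 1) and 36 to 193 when single samples were left out. Of the other pathway genes, 1 passed both thresholds, 0 with either limma fit and 2 without a filter, and 0 to 1 when single samples were left out. Of them 8 were higher and 5 lower at an adjusted p under 0.05, and these became 5 to 8 and 2 to 7 in those fits, with the lowest counts without control sample 2 and without mutant sample 2. The cause of each change was not tested. The replicate numbers of the labels mark different mice. Deviations of same-numbered samples from their group means correlated at 0.019, 0.048 and -0.046, against -0.077 to 0.064 for differently numbered samples. These values show no sign of pairing by number, but with 3 samples per group they cannot exclude it. With the number as a block, 2 enzyme genes and 0 other genes passed both thresholds, and 4 enzyme genes had an adjusted p under 0.05. Of the other genes 7 were higher and 3 lower, with *Pla2g4e* at an edgeR adjusted p of 0.0561, *Pla2g15* at 0.0628 and *Abhd12* at 0.073. The *Ptges* share of the prostaglandin E synthases in mutant mice, 21.1% by FPKM, was 33.2% by expected counts, which are not scaled by length, and 19.8% to 22.3% when single samples were left out. The looser κB form stood in 4 genes where the consensus stood in 1. Depth limits *Hpgd*, *Ptgds* and the control level of *Ptgs2*.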

Other observations

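Epoxide hydrolases and endocannabinoid enzymes handle other products of the same fatty acids, and 12 of their 14 listed genes were tested. *Faah*, which breaks down anandamide, had 0.69, 0.41 and 0.40 FPKM in control samples against 0.15, 0.19 and 0.24 in mutant samples (log2 fold change -1.39 ± 0.32, edgeR adjusted p = 0.0198). Its adjusted p was 0.0778 without control sample 1 and 0.0609 without mutant sample 2, within a range of 0.0143 to 0.0778 over the alternatives. *Abhd12*, a lysophospholipase that also cleaves 2-arachidonoylglycerol, had 96.4, 98.0 and 103 FPKM in control samples against 82.8, 83.1 and 79.1 in mutant samples (-0.29 ± 0.073, adjusted p = 0.0306). It was lost without any 1 sample other than mutant sample 1, at adjusted p from 0.0564 to 0.121, and with the replicate block (edgeR, adjusted p = 0.073). The other 10 did not pass, with log2 fold changes below 0 in 9 of them. The share of all genes tested with a value below 0 was not counted. At an adjusted p under 0.05, 5.42% of all genes tested were lower. Over the 12 genes the median log2 fold change was -0.19, against -0.0028 over all genes tested. This list too was drawn up when earlier results were known, so these directions describe the 12 genes only.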
